A study of Mus musculus with 40 samples.

Results

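Pressure overload was studied in hearts of non-transgenic (ntg) FVB/N mice by RNA sequencing 2 weeks after transverse aortic constriction (TAC), an operation that narrows the aortic arch so that the left ventricle pumps against raised pressure. Polyadenylated RNA (mRNA) libraries of 7 ntg TAC hearts were set against those of 3 ntg sham hearts, chosen by their genotype, operation and RNA type. These are 10 of the 40 libraries of the series, whose other libraries come from mice overexpressing miR-378a (TG) and from RNA bound to the microRNA-binding protein Ago2 (RISC libraries). The labels give male sex and an age of 12 weeks for all groups used here (8 to 12 weeks in the series text), and each library is 1 heart from which the right ventricle had been removed. Genes were restricted to autosomes: 22297 of the 23420 annotated genes lie on autosomes, and 13679 of these passed a filter on low counts and were tested. Nothing in the labels says how the hearts of a group were spread over litters or operating days.

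An overloaded ventricle grows by enlarging its muscle cells. In rodents this growth is known for the return of genes of the fetal heart, for fibrosis, in which fibroblasts lay down collagen, and for a lower capacity to burn fatty acids, the main fuel of the adult heart. The coactivator PGC-1α, encoded by Ppargc1a, works with nuclear receptors such as PPARα and the estrogen-related receptors to switch on mitochondrial and fatty acid genes. Titin-linked and Z-disc proteins such as the ankyrin repeat protein Ankrd1 respond to stretch of the muscle cell.

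The sham hearts are labelled male, yet their RNA held Xist and little of a Y-linked gene. Xist, a noncoding RNA made from the inactive X chromosome of female cells, was at 1.03 to 3.48 CPM (counts scaled to the library total) in ntg TAC hearts and at 126 to 137 CPM in ntg sham hearts. Ddx3y, a gene of the Y chromosome, was at 44.7 to 62.7 CPM in ntg TAC hearts and at 0 to 2.98 CPM in ntg sham hearts. The sex of the hearts therefore moved with the operation in every mRNA library, and RISC libraries were not checked for it. Effects of sex and of pressure overload cannot be told apart in any result below, autosomal genes included. The label for the unconstricted hearts is also not uniform: the labels call them sham, and column headings of the authors' combined count table mark them as having had no surgery, so effects of constriction and of surgery itself cannot be told apart either.

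Fat cell RNA also separated the groups. The mean level of 12 adipocyte genes was 0.721 to 4.15 log2 CPM (median 2.91) in ntg TAC hearts and 5.17 to 5.44 log2 CPM in ntg sham hearts, with no overlap. Of the 12 genes 5 fell in TAC and none rose, with a median log2 fold change of -2.02. The comparison of ntg mRNA libraries was therefore also fitted with this level as a covariate. In that fit 5 of the 12 adipocyte genes were called higher in TAC and none lower, with a median log2 fold change of 0.71. The list that defines the level thus turned direction, so a call kept or lost there does not measure what adipocytes contribute. Their contribution to the results was not otherwise tested. Gene counts per library ran between 11981946 and 16215068 in ntg TAC hearts and between 9980462 and 12001110 in ntg sham hearts. The first principal component of the 10 libraries, which carries 44.1% of their variance, separated TAC from sham hearts. The RNA was that of heart muscle: 10 cardiomyocyte genes summed to 89000 to 95300 CPM in TAC hearts and 112000 to 119000 CPM in sham hearts, while the 10 genes of skeletal muscle summed to at most 6.24 CPM in any of these hearts. Of the 10 cardiomyocyte genes 6 fell and 1 rose, with a median log2 fold change of -0.37. That is 70.0% called, beside 17.7% of all genes tested. Whether the pathway lists below fell by more than these general markers of the muscle cell was not tested.

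**Figure D1:**
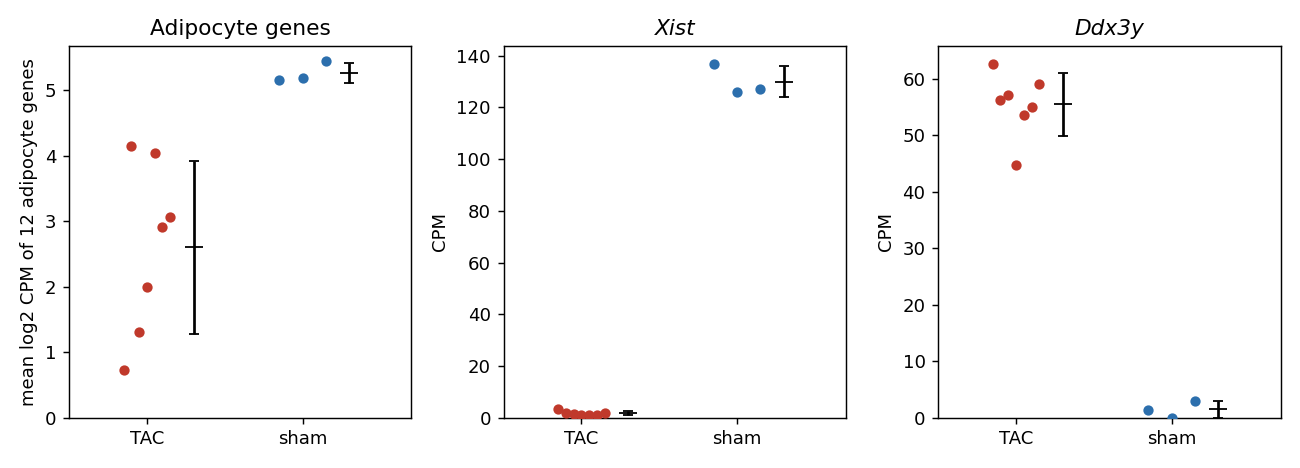
Level per ntg heart of 12 adipocyte genes (mean log2 CPM, left), Xist (CPM, middle) and Ddx3y (CPM, right). Points are hearts (7 TAC, 3 sham), and the line with bars beside them is the mean with its SD; in all panels the groups do not overlap, with the sham hearts at 5.17 to 5.44 for the adipocyte genes and at 126 to 137 CPM for Xist.

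Pressure overload went with changes in a large part of the transcriptome, most of them small. Of the 13679 autosomal genes tested, 1161 (8.49%) rose and 1261 (9.22%) fell in TAC hearts at an adjusted p under 0.05, together 17.7%, and their median absolute log2 fold change was 0.46. A fold change beyond 1 on the log2 scale was seen for 283 of the called genes, 184 higher and 99 lower. The groups did not overlap for 2002 of the 2422 called genes (82.7%), against 20.6% of all genes tested (9.53% with TAC above sham and 11.1% with TAC below). The median log2 fold change over all genes tested was -0.02. In bulk tissue, fewer cells of a type and less RNA per cell cannot be told apart. Adjusted p-values throughout come from edgeR (quasi-likelihood test, Benjamini-Hochberg), levels are CPM after TMM scaling, and positions are in the mouse build mm10.

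Sham hearts number only 3, and the counts depend on them: without sham heart 1, 661 genes rose and 760 fell, and without sham heart 2, 669 rose and 760 fell. With the adipocyte level as a covariate 452 genes (3.3%) rose and 408 (2.98%) fell, together 6.29%, and 796 of the 2422 called genes were called in the same direction. The ntg groups shared no adipocyte level, so that fit compares them at levels not seen in both. A lost call there can go with a wider error and little change, as for Hk2 (-0.36, SE 0.07, and -0.34, SE 0.10, with the covariate). It can also go with a smaller change, as for Lpin1 (-0.52, SE 0.09, and -0.34, SE 0.12).

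**Figure D2:**
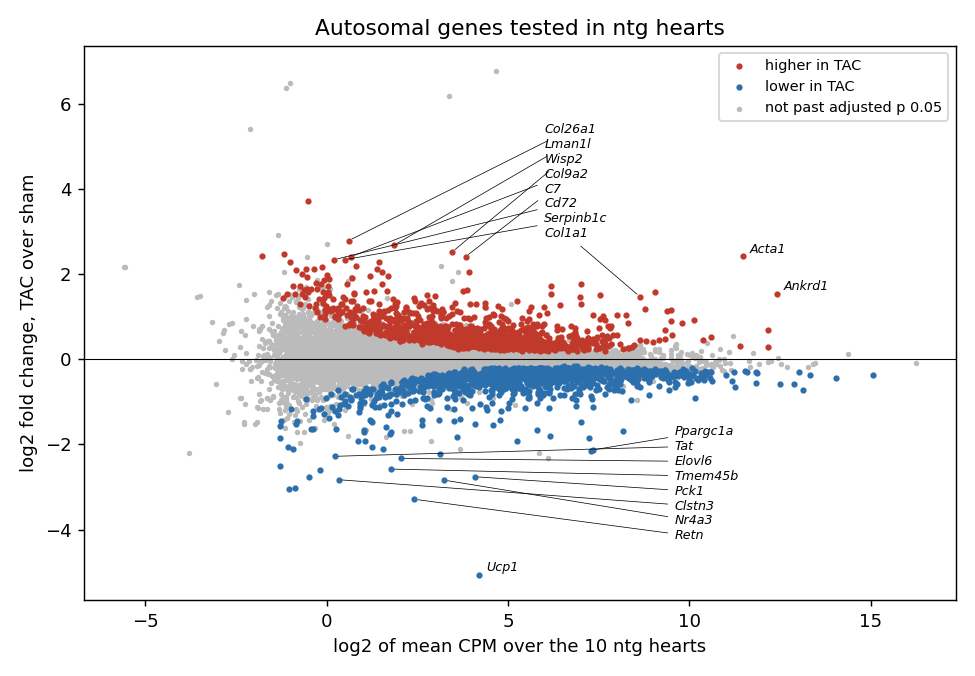
Log2 fold change of TAC over sham ntg hearts (vertical axis) against the log2 of the mean level over the 10 hearts (horizontal axis, CPM) for 13679 autosomal genes. Red points rose and blue points fell at an adjusted p under 0.05, grey points did not pass; labelled are Acta1, Ankrd1, Col1a1, Ppargc1a and, of the called genes that averaged 1 CPM or more and whose groups were apart, the 8 with the highest and the 8 with the lowest fold changes.

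Genes of the fetal and stretched heart muscle were led by skeletal α-actin and Ankrd1. Of 13 such genes tested 5 rose and none fell (Acta1, Ankrd1, Myh7, Xirp2 and Nrap), with a median log2 fold change of 0.53, against 8.49% higher, 9.22% lower and a median of -0.02 over all genes tested. Beyond the genes named by the rule given with the processing, members of this and the following lists are examples chosen after their values were seen. Acta1, the skeletal muscle actin that the fetal heart also makes (chromosome 8, 123891758 to 123894775, minus strand), was at 2750 to 4680 CPM (median 3840) in TAC hearts and at 613, 618 and 868 CPM in sham hearts. Even the lowest TAC heart was above the highest sham heart by a wide margin, and the log2 fold change came to 2.42 (SE 0.39, adjusted p = 0.000463). Ankrd1, a stretch-responsive nuclear and sarcomeric protein (chromosome 19, 36111965 to 36119844, minus strand), was at 5870 to 8160 CPM (median 6530) in TAC hearts and at 2410, 2030 and 2530 CPM in sham hearts. Its groups did not overlap either (log2 fold change 1.54, SE 0.17, adjusted p = 1.98e-06). With the adipocyte covariate the changes were 2.38 for Acta1 and 1.45 for Ankrd1, both still called.

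The bases just upstream of the annotated starts of 3 of the 5 genes that rose are shown, because they hold motifs known for muscle genes; those of Myh7 and Nrap are described without their letters. The windows are the 250 bases before the start, from RefSeq on GRCm38.p6, 5′ to 3′ on the gene's strand: Acta1 is chr8:123894776-123895025 and Ankrd1 is chr19:36119845-36120094, both on the minus strand, and Xirp2 is chr2:67445752-67446001 on the plus strand. Capitals mark matches, on either strand, to the TATA box TATAAA, the MCAT element CATTCC, the cyclic AMP element half-site TGACG, the CArG box bound by serum response factor, and the MEF2 site.
Acta1: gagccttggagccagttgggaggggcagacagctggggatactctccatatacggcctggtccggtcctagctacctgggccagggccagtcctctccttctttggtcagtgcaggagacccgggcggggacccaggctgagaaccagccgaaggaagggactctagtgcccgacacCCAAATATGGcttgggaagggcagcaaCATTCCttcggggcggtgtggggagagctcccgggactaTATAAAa
Ankrd1: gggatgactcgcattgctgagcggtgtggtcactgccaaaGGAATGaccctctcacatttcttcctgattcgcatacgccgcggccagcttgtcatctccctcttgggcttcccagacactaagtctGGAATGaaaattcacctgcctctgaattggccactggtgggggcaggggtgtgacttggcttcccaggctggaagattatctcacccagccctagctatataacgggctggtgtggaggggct
Xirp2: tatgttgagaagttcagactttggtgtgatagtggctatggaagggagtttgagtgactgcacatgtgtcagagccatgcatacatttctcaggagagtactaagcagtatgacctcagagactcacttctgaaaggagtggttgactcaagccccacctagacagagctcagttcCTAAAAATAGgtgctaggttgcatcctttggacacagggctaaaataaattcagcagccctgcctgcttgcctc
The Acta1 window holds a CArG box, an MCAT element and a TATA box, which do not overlap, with their first bases 73, 46 and 7 bases before the annotated start. In Ankrd1 there are 2 MCAT elements, on the opposite strand, at 210 and 123 bases before the start, and in Xirp2 there is 1 MEF2 site at 74 bases. The Nrap window holds none of the muscle motifs and 2 cyclic AMP element half-sites, at 113 and 69 bases. Myh7 has an MCAT element at 201 bases and a half-site at 119 bases before 1 of its annotated starts, and from the other start that half-site is the only match, at 196 bases. Among all 32536 mouse windows of this length a CArG box was found in 1.48%, an MCAT element in 12.6%, a TATA box in 12.3%, the half-site in 17.9% and a MEF2 site in 0.513%. These are matches of letters and no measurement of binding.

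Slow myosin rose too, while the natriuretic peptides did not pass the test. Myh7, the β-myosin heavy chain of the fetal ventricle (chromosome 14), was at 4440 to 6050 CPM (median 5170) in TAC hearts and at 3270, 3180 and 3270 CPM in sham hearts, which is a change of 0.68 on the log2 scale (SE 0.14, adjusted p = 0.0014; adjusted p = 0.0594 with the adipocyte covariate). Xirp2, an actin-binding protein of the intercalated disc, averaged 1310 ± 216 CPM in TAC hearts and 691 ± 65.6 CPM in sham hearts (SD, n = 7 and n = 3; log2 fold change 0.92, adjusted p = 0.0192). Its call was lost without any 1 of the sham hearts, with adjusted p values of 0.0584 to 0.083, and with the adipocyte covariate (0.12). Nrap, which anchors actin filaments while sarcomeres are assembled, averaged 1710 ± 102 CPM in TAC hearts and 1190 ± 48.1 CPM in sham hearts (0.53, adjusted p = 7.14e-05).

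Nppa, which encodes atrial natriuretic peptide and is a textbook marker of overload, was at 645 to 6050 CPM (median 1530) in TAC hearts and at 1540, 141 and 3690 CPM in sham hearts. The groups overlapped over most of their range, and the log2 fold change of 0.55 (SE 0.78) had an adjusted p of 0.684. Without sham heart 2 the log2 fold change was -0.00. Genes of the atrial muscle also varied between hearts, though over a narrower relative range than Nppa. Their 8 members summed to 673 to 2720 CPM in TAC hearts and 838 to 3710 CPM in sham hearts. The part of atrial tissue in the Nppa values was not tested. Nppb, the ventricular natriuretic peptide, was at 322 to 595 CPM (median 386) in TAC hearts and at 251, 426 and 339 CPM in sham hearts (0.33 on the log2 scale, SE 0.24, adjusted p = 0.37). The remaining members did not pass. They were the ankyrin repeat gene Ankrd2, at 0.12 to 1.73 CPM in TAC hearts and 0.0904 to 0.288 CPM in sham hearts, the cytokine Gdf15, the ubiquitin hydrolase Uchl1, the Z-disc protein Csrp3, the calcineurin inhibitor Rcan1 and Xirp1. Xirp1, the close relative of Xirp2, was on the other side, at 287 to 388 CPM (median 330) in TAC hearts and at 432, 490 and 433 CPM in sham hearts, with groups apart and an adjusted p of 0.0501. Without TAC heart 4 it was called (-0.48, adjusted p = 0.0402).

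Shifts between paired isoforms were computed within each heart per transcript length, which removes differences in library composition. The Myh7 share of cardiac myosin heavy chain transcripts (Myh6 plus Myh7, in TPM, counts scaled by length and library) was 12.9% to 17.1% (median 13.8%) in TAC hearts and 7.5%, 7.09% and 7.53% in sham hearts. Acta1 made up 21.9% to 29.0% (median 26.5%) of the sarcomeric actin transcripts (Acta1 plus Actc1) in TAC hearts, against 4.9%, 4.85% and 6.45% in sham hearts. For both shares every TAC heart was above every sham heart (two-sided exact permutation test over the 10 hearts, p = 0.0167 each, the smallest p possible with 120 splits, and 0.0167 after Benjamini-Hochberg adjustment over the 2 shares). Myh7 and Acta1 were already apart between the groups in these same hearts, so the separation of the shares adds no independent support. The fast isoform was the more abundant in both groups. Myh6 averaged 9748 TPM in TAC hearts and 11202 TPM in sham hearts, and Myh7 averaged 1612 TPM in TAC hearts and 892 TPM in sham hearts. These genes have close paralogs, so how the authors' counting assigned reads that match both is uncertain.

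**Figure D3:**
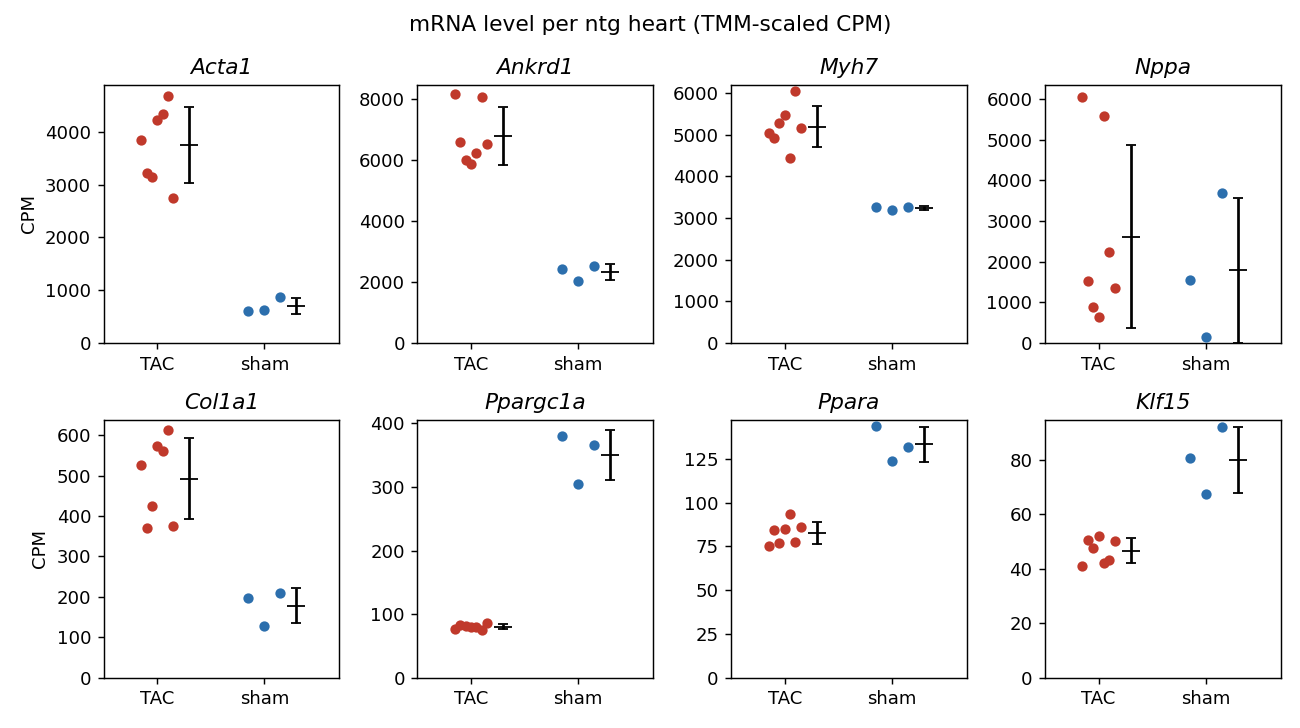
Level per ntg heart in TMM-scaled CPM, on linear axes from 0, of 4 genes of the fetal and stretched heart (top) and of Col1a1, Ppargc1a, Ppara and Klf15 (bottom). Points are hearts (7 TAC, 3 sham), with the mean and its SD beside them; the groups overlap for Nppa only, and the 7 TAC hearts lie at 75.1 to 86.7 CPM for Ppargc1a against 305 to 380 CPM in the sham hearts.

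Some genes of the adult sarcomere fell. Of 20 sarcomere genes 7 fell and 1 rose (40.0% called beside 17.7% of all genes tested, median log2 fold change -0.16). The 20 together summed to 112000 to 121000 CPM in TAC hearts and 137000 to 145000 CPM in sham hearts. The members that fell were Myh6, Myl2, Tnnt2, Tnni3, Tpm1, Mylk3 and Nebl. Cardiac troponin I, Tnni3, was at 4620 to 5450 CPM (median 4910) in TAC hearts and at 7460, 8160 and 6950 CPM in sham hearts, a change of -0.58 (SE 0.10, adjusted p = 0.000453). Mylk3, the kinase that phosphorylates the ventricular myosin light chain, averaged 346 ± 16.2 CPM in TAC hearts and 474 ± 19.9 CPM in sham hearts (-0.46, adjusted p = 0.000175). The thick filament regulator Mybpc3 was the member that rose, by 0.29 (adjusted p = 0.00955). Titin, α-actinin 2 and the M-band genes Myom1 and Myom2 lay between -0.08 and 0.14 and did not pass. Tnni3, Tpm1 and Mylk3 were called lower and no member higher with the adipocyte covariate, while Myh6 (adjusted p = 0.149), Myl2 (0.0616), Tnnt2 (0.0917), Nebl (0.103) and Mybpc3 (0.0989) lost their calls.

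The calcium pump of the sarcoplasmic reticulum, its inhibitor and its release channel fell. Among 21 calcium handling genes 9 fell and 2 rose (52.4% called beside 17.7% of all genes tested, median -0.23). Atp2a2, the calcium pump SERCA2 (chromosome 5), was at 5780 to 6900 CPM (median 6770) in TAC hearts and at 9650, 10200 and 9350 CPM in sham hearts. The groups were far apart (-0.58, SE 0.09, adjusted p = 9.3e-05). Its inhibitor phospholamban, Pln, averaged 2080 ± 120 CPM in TAC hearts and 3300 ± 770 CPM in sham hearts (-0.66, adjusted p = 0.000152). The histidine-rich calcium binding protein Hrc averaged 1400 ± 88.1 CPM in TAC hearts and 2010 ± 33.0 CPM in sham hearts (-0.52, adjusted p = 6.6e-05). Ryr2, the ryanodine receptor that releases the stored calcium, fell by 0.36 (adjusted p = 0.00158). The sodium/calcium exchanger Slc8a1 fell by 0.40 and Casq2, the cardiac calsequestrin, by 0.24. On the other side Casq1, the skeletal muscle calsequestrin, rose by 0.74 (206 CPM in TAC hearts and 123 CPM in sham hearts, adjusted p = 0.000399), and Jsrp1, a junctional protein of skeletal muscle, rose by 1.63 at under 1 CPM in both groups. With the adipocyte covariate 1 member was called higher and 3 lower: Casq1, and Atp2a2, Pln and Hrc, in the same directions as before. Ryr2, Slc8a1, Casq2, Jsrp1 (adjusted p = 0.0878), Cacnb2 (0.247), Jph2 (0.238) and Itpr2 (0.12) lost their calls there.

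Channel genes showed a mixed picture. Of 28 ion channel and gap junction genes 7 fell and 3 rose (35.7% called beside 17.7% of all genes tested, median -0.18). Among those that rose were Gjc1, connexin 45 (0.47, adjusted p = 0.00142), and Kcnj8, a subunit of ATP-sensitive potassium channels (0.43, adjusted p = 0.0118). Most members of the list are potassium channel genes, and so were most of those that fell. They were Kcnk3 (302 ± 17.8 CPM in TAC hearts and 393 ± 39.5 CPM in sham hearts, -0.38, adjusted p = 0.00141), Kcnv2 (-0.81), Kcnj2 (-0.44), Kcnd2 (-0.34), Kcnj11 and Kcnj12 (-0.25 each), beside the T-type calcium channel Cacna1g (-0.44). Connexin 43, Gja1 (0.19, adjusted p = 0.224), did not pass. With the adipocyte covariate 3 members were called higher and 1 lower, Kcnv2 (-0.97, adjusted p = 0.037).

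In the signalling list the angiotensin genes stood out in opposite directions. Of 27 genes tested 6 fell and 1 rose (median -0.05), a share called of 25.9% beside 17.7% of all genes tested. Agt, the angiotensin precursor (chromosome 8), was at 2.35 to 6.43 CPM (median 3.82) in TAC hearts and at 18.3, 11.8 and 28.5 CPM in sham hearts (-2.22, SE 0.31, adjusted p = 0.000111; -1.44 and adjusted p = 0.031 with the adipocyte covariate). Ace, the enzyme that makes angiotensin II, averaged 193 CPM in TAC hearts and 94.6 CPM in sham hearts (1.03, adjusted p = 0.000742), and stayed called with the covariate (1.13, adjusted p = 0.0125). Corin, the protease that activates atrial natriuretic peptide, was at 119 to 150 CPM (median 132) in TAC hearts and at 210, 203 and 201 CPM in sham hearts (-0.64, adjusted p = 6.6e-05). The adrenergic receptor Adra1b (-0.60), the adenylyl cyclase Adcy6 (-0.45), the phosphodiesterase Pde4d (-0.50) and the endothelin receptor Ednra (-0.42) also fell, while Adrb1 (0.26, adjusted p = 0.332) and the angiotensin receptor Agtr1a (-0.09, adjusted p = 0.669) did not pass. With the covariate 1 member was called higher and 3 lower, and Adra1b (adjusted p = 0.219), Pde4d (0.103) and Ednra (0.246) lost their calls. Renin, Ren1, had no counts in any of these hearts.

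Collagens had the highest median of the 24 pathway lists. Of 22 collagen genes 17 rose and none fell (77.3% called beside 17.7% of all genes tested), with a median log2 fold change of 1.01. Col1a1, a chain of the fibrillar collagen of scar tissue (chromosome 11), was at 370 to 614 CPM (median 525) in TAC hearts and at 197, 128 and 209 CPM in sham hearts (1.47, SE 0.31, adjusted p = 0.00338). The other fibrillar chains Col1a2 (1.17) and Col3a1 (1.57) rose as well, as did Col8a1, a short-chain collagen (1.73, adjusted p = 0.00117). The basement membrane chains Col4a1 (0.86), Col4a2 (0.89), Col4a3 (1.13) and Col4a4 (1.00) rose by less but with smaller error: Col4a2 averaged 843 ± 99.0 CPM in TAC hearts and 456 ± 64.2 CPM in sham hearts (adjusted p = 0.000605), and Col4a4 26.1 ± 3.42 CPM in TAC hearts and 12.9 ± 3.68 CPM in sham hearts (adjusted p = 0.000648). Col14a1 (-0.15) was the only member below 0, and it did not pass. With the adipocyte covariate the median was 0.96, and 6 members were called, all higher (Col3a1, the 4 type IV chains and Col8a1); Col1a1 was then at 1.28 with an adjusted p of 0.0713.

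Of 52 other matrix genes tested 21 rose and 2 fell (44.2% called beside 17.7% of all genes tested, median 0.37). Sparc, a collagen-binding matricellular protein (chromosome 11), was at 725 to 969 CPM (median 906) in TAC hearts and at 382, 341 and 434 CPM in sham hearts (1.16, SE 0.14, adjusted p = 1e-05). Nid1, which links laminin to type IV collagen, averaged 283 ± 20.4 CPM in TAC hearts and 190 ± 14.6 CPM in sham hearts (0.58, adjusted p = 0.000473). Periostin, Postn (1.77), fibrillin 1, Fbn1 (1.51), the lysyl oxidase family members Loxl2 (1.09) and Loxl4 (1.42), and Cilp, a protein of fibrotic myocardium (2.06), were among those that rose. Wisp2, a CCN family protein, was the highest of the list, at 8.36 to 25.2 CPM (median 12.4) in TAC hearts and 2.3, 2.27 and 2.98 CPM in sham hearts (2.52, SE 0.43, adjusted p = 0.000591). Timp3, an inhibitor of matrix proteases (-0.57, adjusted p = 0.00145), and Fbln1 (-0.51, adjusted p = 0.00395) fell. Under the adipocyte covariate 10 of the 52 were called higher and none lower, and Timp3 (adjusted p = 0.14), Fbln1 (0.164), Loxl2 (0.0724) and Cilp (0.0831) were among those that lost their calls. Ctgf, a CCN family gene often used as a marker of fibrosis, averaged 323 CPM in TAC hearts and 432 CPM in sham hearts and did not pass (-0.42, adjusted p = 0.396). Of the genes that fibroblasts express at rest, 1 of 12 rose and 2 fell (25.0% called, median 0.05). The list summed to 2660 to 3080 CPM in TAC hearts and 3040 to 3400 CPM in sham hearts, overlapping slightly, with none called under the covariate. Pdgfra (-0.14), Tcf21 (0.08) and Dcn (0.09) did not pass.

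Of 29 genes tested in the TGF-β list 5 rose and 2 fell (median 0.08), a share called of 24.1% beside 17.7% of all genes tested, with Tgfb1 itself at 0.24 (adjusted p = 0.0507). Fstl1, a secreted glycoprotein that binds TGF-β family members, was at 204 to 292 CPM (median 233) in TAC hearts and at 122, 109 and 145 CPM in sham hearts (0.92, adjusted p = 0.00259). The receptor Tgfbr2 averaged 76.6 ± 5.06 CPM in TAC hearts and 59.4 ± 6.44 CPM in sham hearts (0.37, adjusted p = 0.00339). Ltbp2, which binds microfibrils (1.60), Fstl3 (0.97) and Tgfb3 (0.42) were the other risers, and the co-receptor Tgfbr3 (-0.26) and the signal transducer Smad3 (-0.31) fell. Only Tgfbr2 and Fstl1 were called with the adipocyte covariate (adjusted p = 0.0355 and 0.0466).

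**Figure D4:**
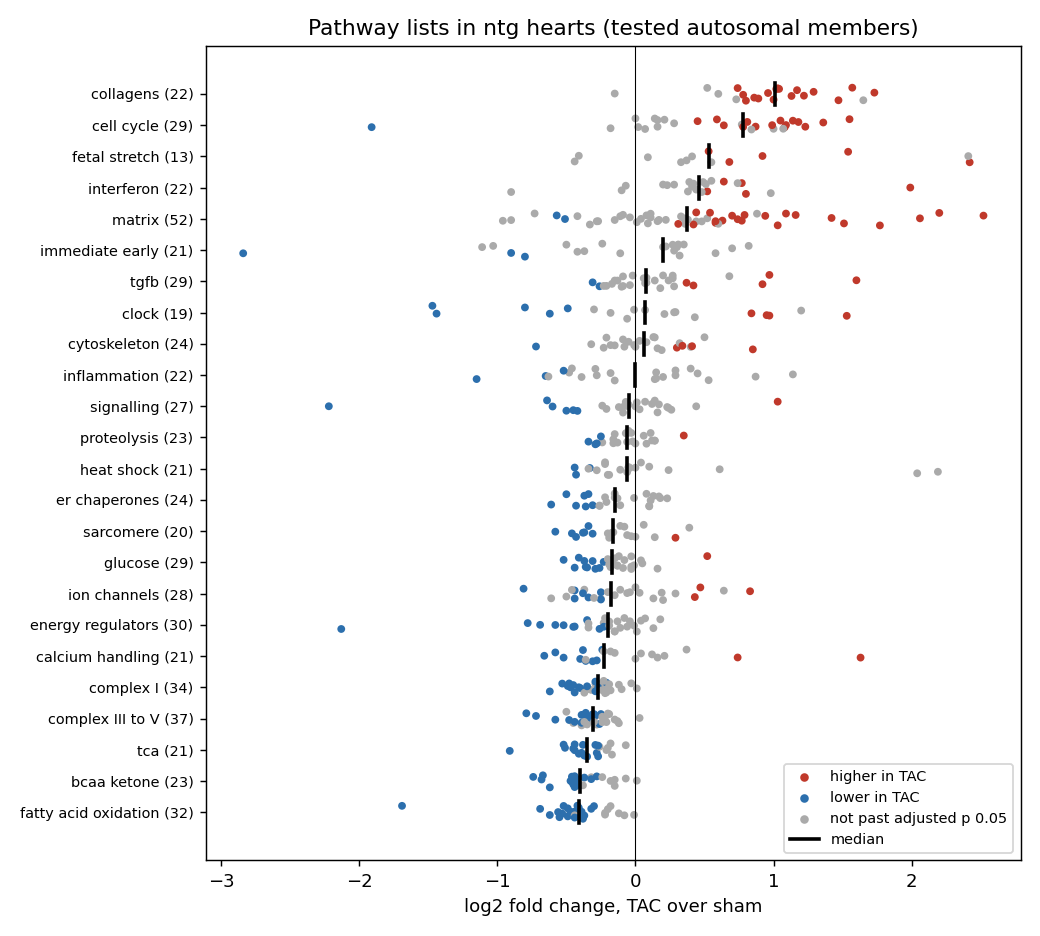
Log2 fold change of TAC over sham ntg hearts for the tested autosomal members of 24 pathway lists, with the number of members in brackets. Each point is 1 gene, red if higher and blue if lower in TAC at an adjusted p under 0.05, grey if not past it, and the black bar is the median of the list; medians run from 1.01 for the collagens to -0.41 for fatty acid uptake and oxidation.

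Ppargc1a, the PGC-1α gene, fell to about the same low level in every TAC heart. It was at 75.1 to 86.7 CPM (median 79.8) in the 7 TAC hearts and at 380, 305 and 366 CPM in the 3 sham hearts (chromosome 5, log2 fold change -2.13, SE 0.10, adjusted p = 9.53e-13). The TAC hearts were close together and far below every sham heart, and the adipocyte covariate left the change at -1.92 (adjusted p = 1.2e-08). Transcription of Ppargc1a is known to respond to cyclic AMP, and the 250 bases before the start that RefSeq gives (chr5:51567726-51567975, minus strand, GRCm38.p6) are shown for that motif. This start lies upstream of the one in the authors' annotation (51553921), whose own upstream bases were not used here.
Ppargc1a: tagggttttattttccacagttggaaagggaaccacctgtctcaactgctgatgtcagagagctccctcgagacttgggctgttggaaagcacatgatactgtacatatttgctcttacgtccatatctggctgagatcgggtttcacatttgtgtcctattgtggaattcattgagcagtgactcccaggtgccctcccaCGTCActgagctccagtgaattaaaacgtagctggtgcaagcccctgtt
The capitals mark its 1 match, a cyclic AMP element half-site on the opposite strand 49 bases before the start, and the letters of the other motifs were not found in this window. The same half-site was found before Nrap and Myh7, which rose, and in 17.9% of all windows.

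Of 30 regulators of energy metabolism 10 fell and none rose (33.3% called beside 17.7% of all genes tested, median -0.20). The paralogs of Ppargc1a did not pass the test: Ppargc1b averaged 51.1 ± 4.88 CPM in TAC hearts and 59.6 ± 10.3 CPM in sham hearts (-0.22, adjusted p = 0.175), and Pprc1 26.9 ± 3.31 CPM in TAC hearts and 29.4 ± 0.858 CPM in sham hearts (-0.13, adjusted p = 0.542). The difference between paralogs was not tested. Ppara, the fatty acid receptor PPARα, was at 75.5 to 93.5 CPM (median 84.5) in TAC hearts and at 144, 124 and 132 CPM in sham hearts, clear of each other (-0.69, SE 0.08, adjusted p = 5.61e-06). Klf15, a transcription factor known to restrain cardiac growth and to drive fatty acid genes, was at 41.0 to 52.0 CPM (median 47.7) in TAC hearts and at 80.4, 67.5 and 91.8 CPM in sham hearts (-0.78, SE 0.14, adjusted p = 0.000516). Lipin 1, Lpin1, which amplifies PGC-1α and PPARα activity in liver, averaged 213 ± 18.7 CPM in TAC hearts and 306 ± 13.7 CPM in sham hearts (-0.52, adjusted p = 0.000292). With the adipocyte covariate 4 of the 10 stayed called, Ppargc1a, Ppara, Klf15 and Esrrb, and Lpin1 did not (adjusted p = 0.0834).

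Smaller decreases were called for the muscle gene Perm1 (listed under its clone name 2310042D19Rik; 384 ± 33.3 CPM in TAC hearts and 526 ± 51.5 CPM in sham hearts, -0.45), for the estrogen-related receptor Esrrb (-0.44), for Pparg (-0.58), for the thyroid hormone receptor Thrb (-0.35), for Gabpa (-0.26) and for Mef2a (-0.23). For Thrb and Gabpa the groups were not apart. The calls of Perm1 (2310042D19Rik, adjusted p = 0.0843), Mef2a (0.107), Thrb (0.159), Gabpa (0.202) and Pparg (0.416) were lost with the adipocyte covariate. Without sham heart 1 the calls of Pparg, Thrb and Gabpa were lost (adjusted p = 0.0709, 0.216 and 0.184), and without sham heart 2 those of Thrb, Gabpa and Mef2a (adjusted p = 0.0919, 0.111 and 0.0735). Pparg was also lost without sham heart 3 (0.136), and Gabpa without TAC heart 1 (0.0509) or TAC heart 6 (0.0518). The remaining 20 regulators did not pass, among them the estrogen-related receptors Esrra (-0.23, adjusted p = 0.118) and Esrrg (-0.20, adjusted p = 0.0836), the mitochondrial DNA factor Tfam (0.01, adjusted p = 0.955), Nrf1 (-0.01, adjusted p = 0.956) and the deacetylases Sirt1 and Sirt3. The retinoid receptors Rxra, Rxrb and Rxrg as well as Ppard, Thra, Gabpb1, Tfb1m, Tfb2m, Nrip1, Mef2d and Prkaa2 had log2 fold changes between -0.34 and 0.18. Nr4a1, an early nuclear receptor gene, was at 15.2 to 119 CPM in TAC hearts, with 1 heart far above the rest, and at 22.5, 30.5 and 75.4 CPM in sham hearts (-0.34, adjusted p = 0.787).

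Most genes of fatty acid uptake and oxidation fell. Of 32 such genes 24 fell and none rose (75.0% called beside 17.7% of all genes tested). None had a positive log2 fold change, and the median was -0.41. Lpl, the lipase that frees fatty acids from blood lipoproteins (chromosome 8), was at 3060 to 3420 CPM (median 3230) in TAC hearts and at 4590, 5150 and 4530 CPM in sham hearts (-0.56, SE 0.08, adjusted p = 3.51e-05). Both subunits of the mitochondrial trifunctional protein fell: Hadhb averaged 493 ± 50.5 CPM in TAC hearts and 756 ± 144 CPM in sham hearts (-0.62, adjusted p = 0.00043), and Hadha was at -0.49 (adjusted p = 0.000699). Acyl-CoA dehydrogenases of very long (Acadvl, -0.38), long (Acadl, -0.32) and medium chains (Acadm, -0.47), the carnitine carriers Cpt2 (-0.41) and Slc25a20 (-0.40) and the uptake proteins Cd36 (-0.40) and Slc27a1 (-0.55) moved alike. Pdk4, the kinase that holds back glucose oxidation, had the lowest fold change of the list (-1.69, adjusted p = 0.0141), averaging 172 CPM in TAC hearts and 554 CPM in sham hearts, and was not called with the adipocyte covariate (-1.04, adjusted p = 0.346). The counts listed for the carnitine palmitoyltransferase 1 genes did not pass: Cpt1a averaged 48.5 CPM in TAC hearts and 48.9 CPM in sham hearts, and Cpt1b 5.97 CPM in TAC hearts and 6.47 CPM in sham hearts. Whether these counts miss reads shared with overlapping genes was not tested, so the levels of the transcripts are uncertain. With the covariate 12 of the 32 were called, all lower, and the median was -0.42.

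The tricarboxylic acid cycle and the respiratory chain also held genes that fell. Of 21 genes of the cycle and its feeders 15 fell and none rose (71.4% called beside 17.7% of all genes tested, median -0.35). With the adipocyte covariate 7 were called lower. Pcx, pyruvate carboxylase, which refills the cycle (chromosome 19), was at 33.2 to 42.4 CPM (median 36.0) in TAC hearts and at 67.0, 62.9 and 80.0 CPM in sham hearts (-0.91, SE 0.10, adjusted p = 3.29e-06). Idh3a, the catalytic subunit of the NAD-dependent isocitrate dehydrogenase, was at 281 to 335 CPM (median 308) in TAC hearts and at 460, 466 and 408 CPM in sham hearts (-0.52, SE 0.06, adjusted p = 7.84e-06). Complex I had 15 of 34 tested subunit genes lower and none higher (44.1% called, median -0.27), led by Ndufs1 (306 ± 19.5 CPM in TAC hearts and 430 ± 48.6 CPM in sham hearts, -0.49) and Ndufb4 (-0.62). Complexes III to V had 17 of 37 lower and none higher (45.9% called, median -0.31), among them Atp5h (-0.39) and the β subunit of ATP synthase, Atp5b (-0.29, adjusted p = 0.072 without sham heart 2). Cox5a and Ndufa12 varied between hearts of 1 group, Ndufa12 from 483 to 1160 CPM among TAC hearts, and did not pass (adjusted p = 0.903 and 0.878). Ndufs5 was listed at 0 in all hearts. With the covariate 9 genes of complex I and 6 of complexes III to V were called lower, none higher, with medians of -0.44 and -0.49.

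In the list for branched-chain amino acids and ketone bodies 15 of 23 genes fell and none rose (65.2% called beside 17.7% of all genes tested, median -0.40). With the adipocyte covariate 9 were called lower. Ppm1k, the phosphatase that activates the branched-chain ketoacid dehydrogenase, was at 50.7 to 64.3 CPM (median 54.9) in TAC hearts and at 86.1, 91.6 and 78.5 CPM in sham hearts (-0.62, SE 0.08, adjusted p = 2.46e-05). Bckdhb, a subunit of that dehydrogenase, averaged 26.1 ± 2.39 CPM in TAC hearts and 42.0 ± 3.97 CPM in sham hearts (-0.68, adjusted p = 5e-05). Its inhibiting kinase Bckdk did not pass, with a mean of 101 CPM in both groups (0.01, adjusted p = 0.967). The ketone enzymes Bdh1 (-0.07) and Oxct1 (-0.24, adjusted p = 0.0654) did not pass.

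Of 29 glucose genes tested 10 fell and 1 rose (37.9% called beside 17.7% of all genes tested, median -0.17). With the adipocyte covariate, however, 1 was called lower (Eno3) and 1 higher (Pfkp). Eno3, the muscle enolase, was at 985 to 1100 CPM (median 1030) in TAC hearts and at 1380, 1420 and 1420 CPM in sham hearts (-0.44, adjusted p = 0.000472). The insulin-regulated glucose carrier Slc2a4 (-0.35), hexokinase 2, Hk2 (-0.36; 436 ± 23.7 CPM in TAC hearts and 561 ± 40.0 CPM in sham hearts), and glycogen synthase, Gys1 (-0.37), fell, and lost their calls with the covariate (adjusted p = 0.148, 0.0531 and 0.251). Pfkp, the platelet-type phosphofructokinase, was the member that rose (0.52, adjusted p = 0.0114). Glycolytic genes of high level such as Aldoa (-0.12), Gapdh (-0.08), Gpi1 (-0.03) and Ldha (-0.09) did not pass.

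The calls among protein quality control genes were mostly lower. Of 24 chaperones and unfolded protein response genes of the endoplasmic reticulum 7 fell and none rose (median -0.15). The share called lower was 29.2%, beside 9.22% of all genes tested. Herpud1 averaged 211 ± 22.6 CPM in TAC hearts and 321 ± 62.9 CPM in sham hearts (-0.61, adjusted p = 0.00123), and Hyou1 49.7 ± 1.71 CPM in TAC hearts and 70.6 ± 12.1 CPM in sham hearts (-0.50, adjusted p = 0.0011). The stress-induced factors Ddit3 (-0.01), Atf4 (-0.26) and Trib3 (0.08) did not pass. Herpud1 and Canx were called with the adipocyte covariate, and Hyou1 was not (adjusted p = 0.0974). Of 21 heat shock genes 3 fell, the mitochondrial chaperonin pair Hspd1 (-0.43) and Hspe1 (-0.44) and the cytosolic Hspa8 (-0.33). Hspe1 lost its call without sham heart 1 or sham heart 2 (adjusted p = 0.0942 and 0.124). The inducible Hspa1a and Hspa1b, near-identical copies whose reads cannot be assigned with certainty, did not pass (adjusted p = 0.351 and 0.323); Hspa1a was at 1.03 to 88.3 CPM (median 2.87) in TAC hearts and at 5.18, 4.75 and 1.9 CPM in sham hearts. Of 23 proteolysis and autophagy genes 1 rose, the ubiquitin ligase Smurf1 (0.35, adjusted p = 0.0023), and 4 fell; the muscle atrophy ligases Fbxo32 (-0.02) and Trim63 (-0.24) did not pass. The share called was 14.3% of the heat shock and 21.7% of the proteolysis genes, beside 17.7% of all genes tested, and with the covariate 2 heat shock genes were called lower and Smurf1 alone of the proteolysis genes, higher.

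Of 24 cytoskeletal genes tested 4 rose and 1 fell (median 0.06), a share called of 20.8%, near the 17.7% of all genes tested. With the adipocyte covariate Synpo2l was called higher (adjusted p = 0.038) and Tuba4a lower (adjusted p = 0.038), and no other member was called. Synpo2l, an actin-bundling Z-disc protein (chromosome 14), was at 314 to 415 CPM (median 369) in TAC hearts and at 193, 219 and 199 CPM in sham hearts (0.85, SE 0.17, adjusted p = 0.00168). Desmin, Des (0.30), vimentin, Vim (0.41), and talin, Tln1 (0.34), rose by less. The tubulin gene Tuba4a fell, at 441 to 671 CPM (median 600) in TAC hearts and 952, 910 and 1020 CPM in sham hearts (-0.72, SE 0.11, adjusted p = 0.000139).

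Cell cycle genes rose at low levels. Of 29 tested 15 rose and 1 fell (55.2% called beside 17.7% of all genes tested, median 0.78). Ccnd1, the cyclin that opens the cycle (chromosome 7), was at 61.6 to 75.1 CPM (median 67.0) in TAC hearts and at 38.6, 43.6 and 48.5 CPM in sham hearts (0.64, SE 0.09, adjusted p = 2.9e-05). Genes of the dividing cell were scarce in all hearts: Mki67, a marker of cycling cells, averaged 13.3 ± 3.0 CPM in TAC hearts and 5.64 ± 1.96 CPM in sham hearts (1.23, adjusted p = 0.00193). Ccna2, a cyclin of DNA replication, rose by 1.55 and Cdc20, which drives exit from mitosis, by 1.36. Cdkn1a, the p21 inhibitor of the cycle (chromosome 17), went the other way, at 17.1 to 24.0 CPM (median 21.1) in TAC hearts and 92.4, 52.8 and 89.4 CPM in sham hearts. Its change of -1.91 (SE 0.24, adjusted p = 4.01e-05) was the lowest of the list and stayed called with the adipocyte covariate (-1.63, adjusted p = 0.0131). With that covariate 5 of the genes were called higher, and bulk RNA does not tell which cell type carries them.

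Of 19 clock genes tested 47.4% were called, beside 17.7% of all genes tested. There 4 rose, Dbp (1.53), Per3 (0.84), Nr1d1 (0.95) and Bhlhe41 (0.97), and 5 fell, among them Arntl (-1.47), Npas2 (-0.80), Cry1 (-0.62) and Nfil3 (-1.44). In the mouse clock, Dbp, Per3 and Nr1d1 are driven by the Arntl-Clock dimer, and the Nr1d1 protein represses Arntl and Nfil3. Per3 was at 64.7 to 82.1 CPM (median 72.5) in TAC hearts and at 38.8, 35.2 and 47.8 CPM in sham hearts (adjusted p = 0.000167). Nfil3, a repressor that opposes Dbp, was at 6.49 to 9.0 CPM (median 7.68) in TAC hearts and at 20.1, 24.4 and 17.4 CPM in sham hearts (adjusted p = 3.92e-05). Per3, Bhlhe41 and Nfil3 stayed called with the adipocyte covariate (adjusted p = 0.012, 0.0418 and 0.013), while Dbp (0.181), Nr1d1 (0.206), Arntl (0.402), Npas2 (0.638) and Cry1 (0.0699) did not. Clock itself (-0.30), Per1 (-0.06) and Per2 (0.07) did not pass. The labels do not give the time of day at which hearts were taken, so its part in these values cannot be told apart from the operation.

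Immediate early genes were variable. Of 21 tested 3 fell and none rose (median 0.20), a share called of 14.3% beside 17.7% of all genes tested. The 3 were Nr4a3, Maff and Zfp36. Nr4a3, a nuclear receptor induced by exercise and adrenergic signals in muscle (chromosome 4), was at 1.99 to 8.14 CPM (median 2.55) in TAC hearts and at 24.1, 22.4 and 24.9 CPM in sham hearts (-2.84, SE 0.60, adjusted p = 0.00365; adjusted p = 0.127 with the adipocyte covariate). Maff averaged 6.98 ± 1.46 CPM in TAC hearts and 12.1 ± 3.79 CPM in sham hearts (-0.80, adjusted p = 0.00305), with groups that overlapped, and lost its call without sham heart 3 (adjusted p = 0.0651). Fos (-0.11), Jun (0.22), Myc (0.35) and Egr1 (0.82, adjusted p = 0.31) did not pass. No member was called with the adipocyte covariate.

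Interferon response genes rose in part. Of 22 interferon response genes 5 rose and none fell (median 0.46), a share called of 22.7% beside 17.7% of all genes tested. Oas1a, an antiviral RNA sensor, was at 0.782 to 1.69 CPM (median 1.36) in TAC hearts and at 0.096, 0.324 and 0.542 CPM in sham hearts (1.99, SE 0.37, adjusted p = 0.000684). Ifit3 averaged 5.48 ± 1.25 CPM in TAC hearts and 3.25 ± 0.671 CPM in sham hearts (0.77, adjusted p = 0.0174), and Ifit2, Isg15 and Oas2 rose as well. The call of Ifit3 was lost without sham heart 1 or sham heart 3 (adjusted p = 0.114 and 0.0735). Oas1a, Ifit3 and Oas2 were called with the adipocyte covariate. Of 22 inflammation genes tested 3 fell and none rose (median -0.00): Ccl6, a macrophage chemokine (11.9 ± 2.74 CPM in TAC hearts and 26.3 ± 5.25 CPM in sham hearts, -1.15, adjusted p = 0.000194), Ccl9 (-0.65) and the oncostatin M receptor Osmr (21.7 ± 1.28 CPM in TAC hearts and 31.0 ± 5.3 CPM in sham hearts, -0.52). The share called of the inflammation genes was 13.6%, below the 17.7% of all genes tested. With the covariate Ccl6 alone was called (adjusted p = 0.0174). Il6, Il1b and Cxcl10 were too low to be tested.

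Markers of other cells gave these values. Of 17 macrophage genes 4 rose (Cd68, Csf1r, Fcgr1 and Ms4a7) and 1 fell: Lyve1, a marker of resident macrophages and lymphatic vessels, averaged 20.1 CPM in TAC hearts and 46.6 CPM in sham hearts (-1.22, adjusted p = 2.2e-05). Of 12 endothelial genes 4 rose, among them Tie1 (0.51) and Cdh5 (0.46), and Flt1 fell (-0.32). Of 10 smooth muscle and pericyte genes 3 rose and Acta2 fell (-0.73, adjusted p = 0.00576). Both tested red cell genes rose, the β-globin gene Beta-s by 1.13 (adjusted p = 0.0278) and Slc4a1 by 1.61 (adjusted p = 0.0361), but neither was called with the adipocyte covariate (adjusted p = 0.141 and 0.144), and 4 further globin genes were listed at 0 in all hearts. None of 8 lymphocyte, 8 atrial or 3 neutrophil genes passed, and 1 of 7 mesothelial genes (Upk3b, lower), 1 of 5 Schwann cell genes (Cnp, higher) and 1 of 5 skeletal muscle genes (Tnni2, lower) did.

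The highest fold changes of the whole comparison, among called genes that averaged 1 CPM or more with groups apart, were those of Col26a1 (2.79; 2.06 ± 0.697 CPM in TAC hearts and 0.292 ± 0.0891 CPM in sham hearts), Lman1l (2.68), Wisp2, Acta1, Col9a2 (2.41; 2.1 ± 0.427 CPM in TAC hearts and 0.371 ± 0.33 CPM in sham hearts), C7 (2.41), Cd72 (2.34) and Serpinb1c (2.34). C7, a terminal complement component (chromosome 15), was at 13.8 to 29.2 CPM (median 17.8) in TAC hearts and at 4.13, 1.51 and 4.79 CPM in sham hearts (SE 0.29, adjusted p = 1.72e-05). Lman1l, a relative of a cargo receptor of the secretory pathway (chromosome 9), was at 3.03 to 6.66 CPM (median 4.93) in TAC hearts and at 1.34, 0.324 and 0.542 CPM in sham hearts (SE 0.34, adjusted p = 1.5e-05). Lman1l, Col26a1, Col9a2, Cd72 and Serpinb1c did not exceed 6.66 CPM in any heart, so their values rest on few reads.

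The lowest included 3 members of the adipocyte list. Ucp1, the heat-producing protein of brown fat (-5.07), Retn, the fat cell hormone resistin (-3.29), and Pck1, an enzyme of glyceride synthesis in fat (-2.76), stood beside the fatty acid elongase Elovl6 (-2.33), Nr4a3, Clstn3 (-2.83), Tmem45b (-2.58) and the tyrosine aminotransferase Tat (-2.28). Clstn3 and Tmem45b lost their calls without sham heart 3 (adjusted p = 0.0734 and 0.0688), and Pck1 lost its call without TAC heart 1, 3, 4, 6 or 7 or any 1 sham heart (0.0541 to 0.131). Ucp1 was at 0 to 8.61 CPM (median 0.423) in TAC hearts and at 45.8, 47.4 and 77.8 CPM in sham hearts. With the adipocyte level, which Ucp1, Retn and Pck1 help to define, as a covariate, only Elovl6 of these 8 was called (-1.67, adjusted p = 0.00544). Elovl6 was at 0.925 to 3.58 CPM (median 1.84) in TAC hearts and at 7.87, 7.55 and 13.0 CPM in sham hearts (-2.33, SE 0.25, adjusted p = 1.93e-06).

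**Figure D5:**
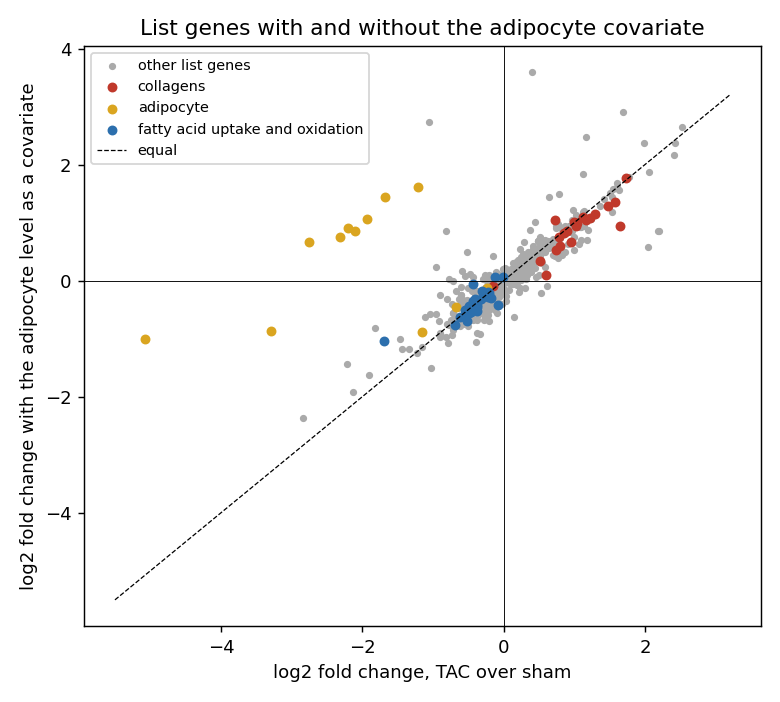
Log2 fold change of TAC over sham ntg hearts (horizontal axis) against the same with the mean level of 12 adipocyte genes as a covariate (vertical axis) for the genes of all lists. The dashed line is equality. Medians without and with the covariate are 1.01 and 0.96 for the collagens (red) and -0.41 and -0.42 for the fatty acid genes (blue). Single members lie further off the line, such as Col11a1 (1.65 and 0.95) and Col5a3 (0.96 and 0.66). The adipocyte genes (gold) have medians of -2.02 without and 0.71 with the covariate.

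The same operation in TG hearts (7 TAC, 3 sham, all sham libraries again with Xist at 117 to 142 CPM) gave log2 fold changes of 3.37 for Acta1, 1.50 for Ankrd1, 1.32 for Col1a1 and -1.46 for Ppargc1a, all called; 1799 autosomal genes (13.2%) were called there, 6.61% higher and 6.54% lower. The test of the difference between the TG and the ntg effect called 12 genes (0.0877%), 10 with a higher (0.0731%) and 2 with a lower value (0.0146%) in TG (48 and 22 by DESeq2). None of Acta1, Ankrd1, Col1a1 and Ppargc1a was among the 12 (adjusted p = 0.517, 0.967, 0.941 and 0.0913). Among the named genes the difference was called for Elovl6 (2.27, adjusted p = 0.0258), whose change in TG hearts was -0.07 (adjusted p = 0.918).

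The adipocyte level beside these calls was at 1.47 to 3.68 log2 CPM in TG TAC hearts and at 2.52, 2.57 and 1.48 log2 CPM in TG sham hearts, against 0.721 to 4.15 log2 CPM in ntg TAC hearts and 5.17 to 5.44 log2 CPM in ntg sham hearts. The groups overlapped in TG hearts and were apart in ntg hearts, and the part of adipocyte RNA in the difference was not tested.

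The other 11 genes were Plin4, Lrrc10, Fmo2, Pip5k1b, Pcdh12, Acly, Slc25a1, Pdlim3, Ets2, Psd3 and Arhgap26. Plin4, a lipid droplet protein, was at 218 to 303 CPM (median 253) in ntg TAC hearts and at 526, 438 and 546 CPM in ntg sham hearts, a change of -0.96 that stood at 0.17 in TG hearts (difference 1.13, SE 0.15, adjusted p = 0.00127). Acly, which makes acetyl-CoA for fatty acid synthesis, was at -0.69 in ntg and 0.09 in TG hearts (difference 0.78, adjusted p = 0.0177), and the mitochondrial citrate carrier Slc25a1 at -0.79 in ntg and 0.52 in TG hearts (difference 1.31, adjusted p = 0.0258). Pcdh12, a protocadherin of endothelial cells, and the transcription factor Ets2 were the 2 with a lower value in TG, having risen by 0.95 and 0.65 in ntg hearts. The count fell to 1 higher and none lower without ntg sham heart 1 or without ntg sham heart 3, and to 3 higher and 1 lower without TG sham heart 1.

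In Ago2-bound RNA of the same kind of ntg hearts (7 TAC, 3 sham), 721 genes were higher (5.55%) and 703 lower (5.41%) in TAC, 11.0% of 13000 autosomal genes tested. Acta1 was at 368 to 675 CPM (median 440) in TAC hearts and at 93.9 to 173 CPM in sham hearts (1.97, adjusted p = 0.00288), and Ankrd1 at 1850 to 2540 CPM in TAC hearts and 705 to 848 CPM in sham hearts (1.45, adjusted p = 3.68e-10). Ppargc1a was at -1.98 (adjusted p = 1.96e-14) and Col1a1 at 1.51 (adjusted p = 0.00781). Without sham heart 1, 323 genes were higher and 382 lower. Of 22 collagens 14 were higher and none lower, and of 37 genes of complexes III to V 31 were lower and none higher. Values of RISC libraries depend on the level of an mRNA as well as on its binding by Ago2, and binding alone was not measured here. The ribosomal precursor Rn45s took 51.51% to 62.29% of gene counts in these RISC libraries, so their CPM cannot be set directly against those of mRNA libraries. Gene counts ran from 7550054 (TAC heart 6) to 20258047 (sham heart 3).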

How the data were processed

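The authors deposited counts of reads per gene, 1 file per library, made with TopHat2 2.0.10, Bowtie2 and HTSeq on mm10, per the submitters' processing notes, from non-strand-specific single-end libraries, per the labels' protocols. Reads of overlapping and antisense genes therefore cannot be told apart. The 5 summary rows of each file, 10.1% to 11.7% of the reads in ntg TAC and 10.2% to 10.6% in ntg sham mRNA libraries, were dropped. The ribosomal precursor Rn45s took 5.72% to 11.3% of gene counts in ntg TAC and 6.5% to 9.05% in ntg sham mRNA libraries. In RISC libraries it took 51.51% to 55.09% in ntg TAC hearts and 52.48% to 62.29% in ntg sham hearts. The file for each library was used, not the combined table.

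All 20 mRNA libraries (4 groups) were fitted with edgeR 4.0.16 in R 4.3.3 (filterByExpr, TMM, robust quasi-likelihood test), and the contrast of ntg TAC minus ntg sham was adjusted by Benjamini-Hochberg over the 14141 genes tested. Only the 13679 autosomal ones are counted, called at an adjusted p under 0.05. RISC libraries were fitted likewise. The biological coefficient of variation was 12.9% in mRNA and 16.6% in RISC libraries. On simulated data the test recovered 47 of 100 genes changed by 0.5 and 87 of 100 changed by 1 on the log2 scale, with 4 false calls among 14004 genes. Standard errors are the log2 fold change over the square root of F. Myosin and actin shares were computed from counts per annotated exon length (TPM) and tested with scipy 1.17.1 in Python 3.11.15.

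Named are Acta1, Ankrd1, Col1a1 and Ppargc1a; the 8 highest and 8 lowest fold changes among called genes that averaged 1 CPM or more with groups apart; all members of the fetal and energy regulator lists; and up to 2 called members of smallest p for each other pathway list. Some genes that this rule names or the lists hold are not reported here. Members and lists were chosen with earlier results of these data known. Lists number 24 for pathways and 13 for cell types. Alternatives were DESeq2 1.42.0, its size factors, no filter, autosomal genes only, no Rn45s, ntg libraries only, the replicate number as a block, the adipocyte level as a covariate, and each heart left out. Hearts are separate samples in the labels, and nothing ties equal replicate numbers to a shared animal or day.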

Additional observations from a re-analysis of the deposited data

Results flagged for a closer look

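Among the 7 ntg TAC hearts, 10 of the 102 named genes had 1 heart that stood apart from the other six by the gap test of Dixon, which flags about 1 in 20 groups by chance. Heart 5 was the highest for Ucp1 (8.61 CPM, the next at 1.34), Clstn3 (1.33, the next at 0.488), Elovl6 (3.58, the next at 2.01) and Ifit3 (8.06, the next at 5.74). Heart 4 was the highest for Nr4a3 (8.14 CPM, the next at 2.89) and Nr4a1 (119 CPM, the next at 23.5). Heart 2 was the highest for Retn (4.94 CPM, the next at 1.52) and Kcnk3 (337 CPM, the next at 307), heart 7 for Ppm1k (64.3 CPM, the next at 56.1), and heart 3 was the lowest for Hyou1 (46.3 CPM, the next at 49.6). Ucp1 and Retn are members of the adipocyte list.

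The TAC effect on Elovl6 differed between TG and ntg hearts by 2.27 on the log2 scale (edgeR, adjusted p = 0.0258). Elovl6 was at 1.04 to 1.42 CPM in TG TAC hearts and at 1.43, 1.83 and 0.719 CPM in TG sham hearts, against 0.925 to 3.58 CPM in ntg TAC hearts and 7.87, 7.55 and 13.0 CPM in ntg sham hearts. The adipocyte level was at 2.52, 2.57 and 1.48 log2 CPM in TG sham hearts, below the 5.17 to 5.44 log2 CPM of ntg sham hearts, and its part in the difference was not tested.

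Xist, which lies outside the autosomal genes compared, was at 137, 126 and 127 CPM in the 3 ntg sham libraries labelled male, above 1.03 to 3.48 CPM in the ntg TAC hearts.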

How the results depend on the processing

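The counts of 1161 genes higher and 1261 lower in TAC stayed within 1.5 times under DESeq2 (1210 and 1289), its size factors (1207 and 1198), no filter (1215 and 921), autosomal genes only (1320 and 1059), no Rn45s (1235 and 1173) and ntg libraries only (1393 and 1497). They moved to 452 and 408 with the adipocyte covariate. Leaving out 1 heart gave 661 to 1169 higher and 760 to 1245 lower. Of the 74 called named genes 49 kept their call and direction with the adipocyte covariate, and 62 did whichever heart was left out. The difference between TG and ntg counted 48 higher and 22 lower by DESeq2, and 1 to 20 higher and 0 to 6 lower with 1 heart left out. RISC counts were 323 to 727 higher and 382 to 738 lower with 1 heart left out. The cause of these moves was not tested, beyond the smaller number of hearts where 1 is left out.

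Equal replicate numbers did not pair hearts (correlation of deviations -0.0771, 0.0296 and -0.24 for the same number, -0.33 to 0.326 for different ones, across 10161 genes). With the replicate block 828 genes were higher and 864 lower, with the block in ntg libraries only 749 and 698, and in RISC 423 and 389. The block gave 14 higher and 3 lower for the difference between TG and ntg. Pck1, Pparg, Gabpa, Mef2a and Hspe1 lost their calls under the block. Genes called higher numbered 2 in the TGF-β, 1 in the cytoskeletal and 0 in the red cell list there.

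Signs turned for Pck1 (0.66) and Tmem45b (0.36) with the adipocyte covariate. Among genes that did not pass, they turned for Nrf1 (0.02 with no filter, 0.01 with autosomal genes only, 0.01 with the covariate), Tfam (-0.03 with the covariate), Tfb2m (0.01 with the block, 0.07 with the block in ntg libraries) and Mef2d (0.02 with the covariate). With 1 heart left out the log2 fold change ranged over 0 for Nrf1 (-0.05 to 0.03), Tfam (-0.09 to 0.11), Mef2d (-0.07 to 0.01), Nr4a1 (-1.13 to 0.36), Nrip1 (-0.05 to 0.09) and Nppa (-0.00 to 1.63).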

Other observations

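Pancreatic islet hormone genes were present in 4 of the 7 ntg TAC hearts, a pattern chosen after its values were seen. Ins2, an insulin gene, was at 0.765, 105, 50.2, 50.9, 46.0, 0.459 and 0 CPM in ntg TAC hearts 1 to 7 and at 0.384, 0.216 and 0.362 CPM in the ntg sham hearts. Ins1, the other mouse insulin gene, was at 0, 42.9, 20.6, 21.5, 17.6, 0.306 and 0.061 CPM in ntg TAC hearts and at 0, 0.432 and 0.181 CPM in ntg sham hearts. The same 4 hearts held the glucagon gene Gcg at 0.909 to 1.62 CPM, against 0 CPM in all ntg sham hearts. None of these genes passed the test (Ins2 log2 fold change 6.77, SE 2.83, adjusted p = 0.112 by edgeR), and the groups overlapped.

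TG TAC hearts 1, 2, 3 and 7 also held Ins2, at 47.6 to 51.7 CPM, while TG TAC hearts 4, 5 and 6 were at 0 to 0.505 CPM and TG sham hearts at 0 to 0.18 CPM. In RISC libraries Ins2 did not exceed 8.82 CPM in ntg TAC hearts and 2.42 CPM in ntg sham hearts. The pancreatic enzyme genes Prss1 and Amy2a5 were at 0 in all 20 mRNA libraries, Cpb1, Pnlip and Cel did not exceed 0.121 CPM in any of them, and Cela1, the highest of the 11 enzyme genes looked at, reached 2.02 CPM. The cause was not tested.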
